A study of Mus musculus with 12 samples.

Results

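Imprinted genes, which are read from a single parental chromosome, were followed across 12 mouse tumours raised from 4T1 cells. The 41 genes were listed by symbol and found among the 57186 genes of the count table, each by the identifier that an annotation pairs with its symbol. They were grouped by position into 17 clusters, a gap of more than 3 Mb starting a new cluster, and by the parental allele that is known to be expressed in the mouse. The list was drawn up with the difference between these 2 groups of tumours already known, so the differences between the groups are a description of its members. Where a member is said to rise, fall or pass a threshold, this states on which side of it the gene lay in a fit over all genes, and is not independent evidence of a difference.

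Genomic imprinting marks the maternal and the paternal copy of a gene differently in the germ line, mostly by DNA methylation of a control region, and the mark is kept in the body's cells so that a single copy is transcribed. Imprinted genes lie in clusters that share such a control region, and several clusters hold a long non-coding RNA that silences its protein-coding neighbours on the same chromosome. Many imprinted genes act on fetal growth, the placenta and early mesenchyme, and most of these are low in adult tissue.

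The Tn tumours came from cells of 4T1, a carcinoma line of the mouse mammary gland, in which Cosmc was silenced with CRISPR/Cas9. Cosmc is C1galt1c1, which helps the core 1 galactosyltransferase to fold, and without it O-linked sugars on the cells stop at the truncated Tn antigen. The WT tumours came from the parental 4T1 cells, and each group held 6 tumours, labelled as breast tissue. The labels do not say whether the silenced cells were a clone or a pool, nor give the age or strain of the mice, and whole tumours were homogenised, so carcinoma cells and host cells were measured together. Silencing of Cosmc and any other difference between the silenced and the parental cells cannot be told apart. Tumours are named by group and label number, Tn1 to Tn6 and WT1 to WT6.

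Messenger RNA was enriched by its poly(A) tail, and a tumour held 113575859 to 156880766 counts. C1galt1c1 itself was lower in every Tn tumour, at 10.8 to 12.9 CPM (counts scaled to library size, with TMM between libraries), against 15.5 to 23 CPM in WT tumours, with a log2 fold change of -0.80 ± 0.11 (SE; edgeR quasi-likelihood test, adjusted p = 0.000201). The mean log2 CPM of 10 epithelial genes of the carcinoma ran from 5.63 to 6.99 in Tn tumours and from 6.24 to 7.77 in WT tumours. Library numbers in the labels ran from 2 to 12 for Tn and from 17 to 24 for WT tumours, and the order of the libraries and the group cannot be told apart.

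All 41 genes had an entry in the table and 36 passed the filter on low counts. The median log2 fold change of these 36, Tn over WT, was -1.18, against 0.01 over all 19255 genes tested. Of the 36, 24 fell and 2 rose past an adjusted p of 0.05 (edgeR), where 17.4% of all tested genes fell and 19.5% rose. A fall of at least 2-fold was found for 20 of them, where 7.13% of all tested genes fell as far, and a rise of at least 2-fold for H19 alone, where 5.6% of all did. In 15 genes the highest Tn tumour was below the lowest WT tumour, as in 8.35% of tested genes, and in none was the lowest Tn tumour above the highest WT tumour, as in 8.81%. The genes were listed for this difference, so nothing is read from these shares. Because whole tumours were sequenced, fewer cells of a type and less RNA per cell cannot be told apart for any gene below, and gene counts do not tell which parental allele was read.

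By expressed allele, 18 of the 22 paternally expressed genes were tested, and 15 of these fell and none rose. All 14 maternally expressed genes were tested, of which 8 fell and 2, H19 and Copg2, rose. The median log2 fold change was -1.77 for the paternally and -0.40 for the maternally expressed genes. These groups follow the allele known in the mouse, which was not measured here. The maternal group holds Ube3a, which is read from both copies outside neurons. None of Blcap, Gnas and Inpp5f, whose imprinting concerns some of their transcripts, passed the threshold, with log2 fold changes between -0.20 and 0.06. Grb10, whose expressed allele depends on the tissue, fell, and Ddc, the other gene of that kind, was too low to test.

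**Figure D1:**
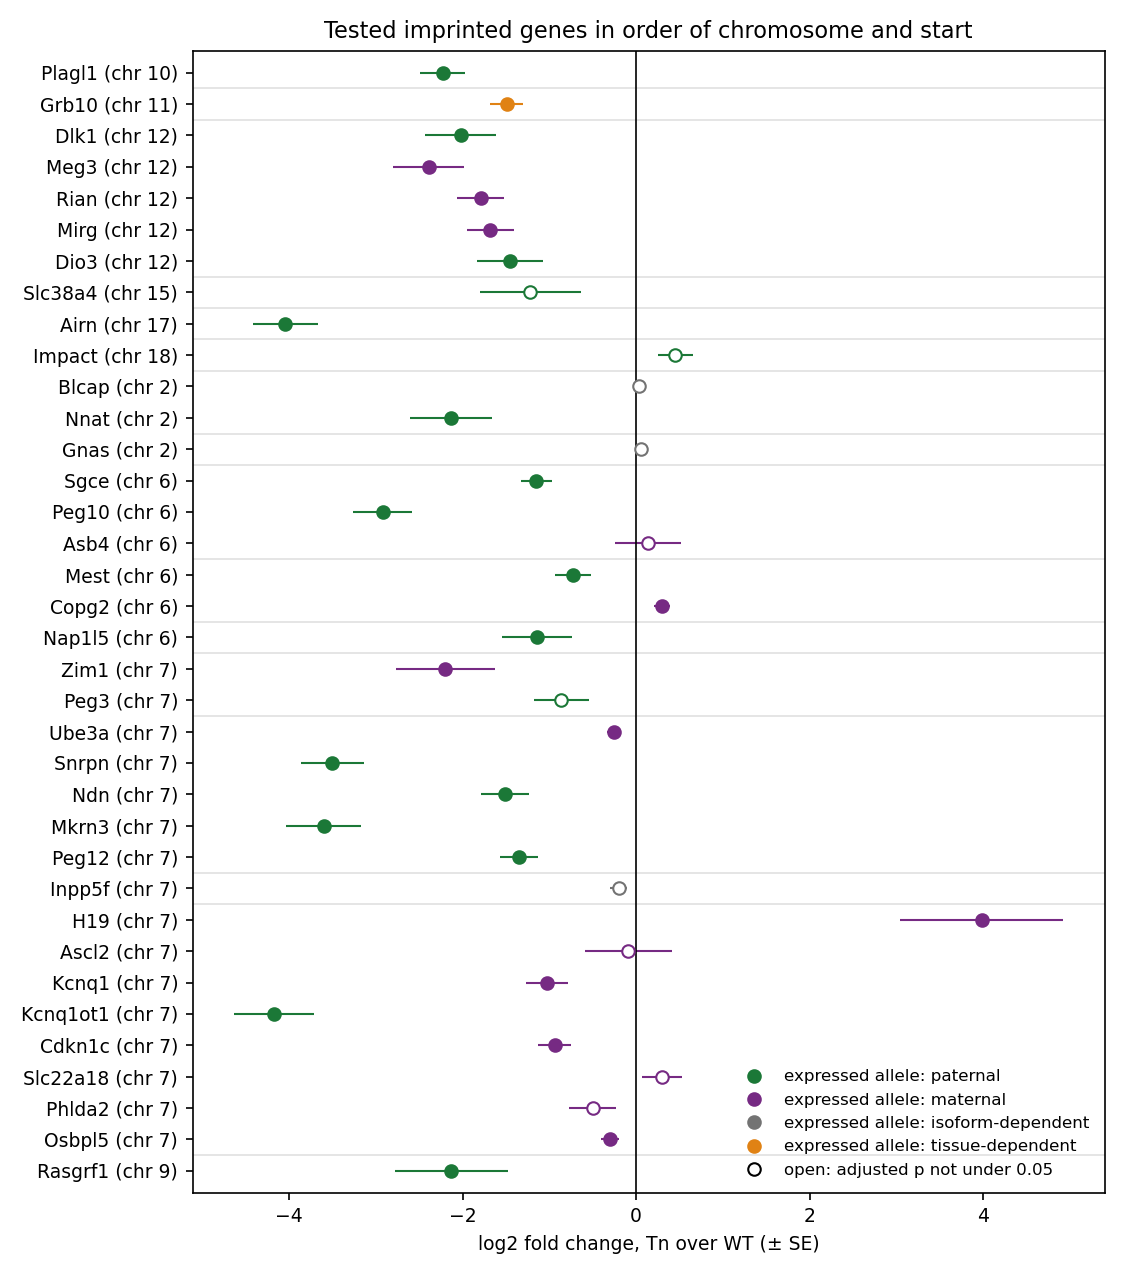
Log2 fold change, Tn over WT, of the 36 tested imprinted genes in order of chromosome and start, with bars of 1 SE and lines between clusters; colours give the expressed allele and open points did not pass an adjusted p of 0.05. Kcnq1ot1 and Airn lie farthest to the left, at -4.17 and -4.04, and H19 is the only gene far to the right, at 3.98.

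**Figure D2:**
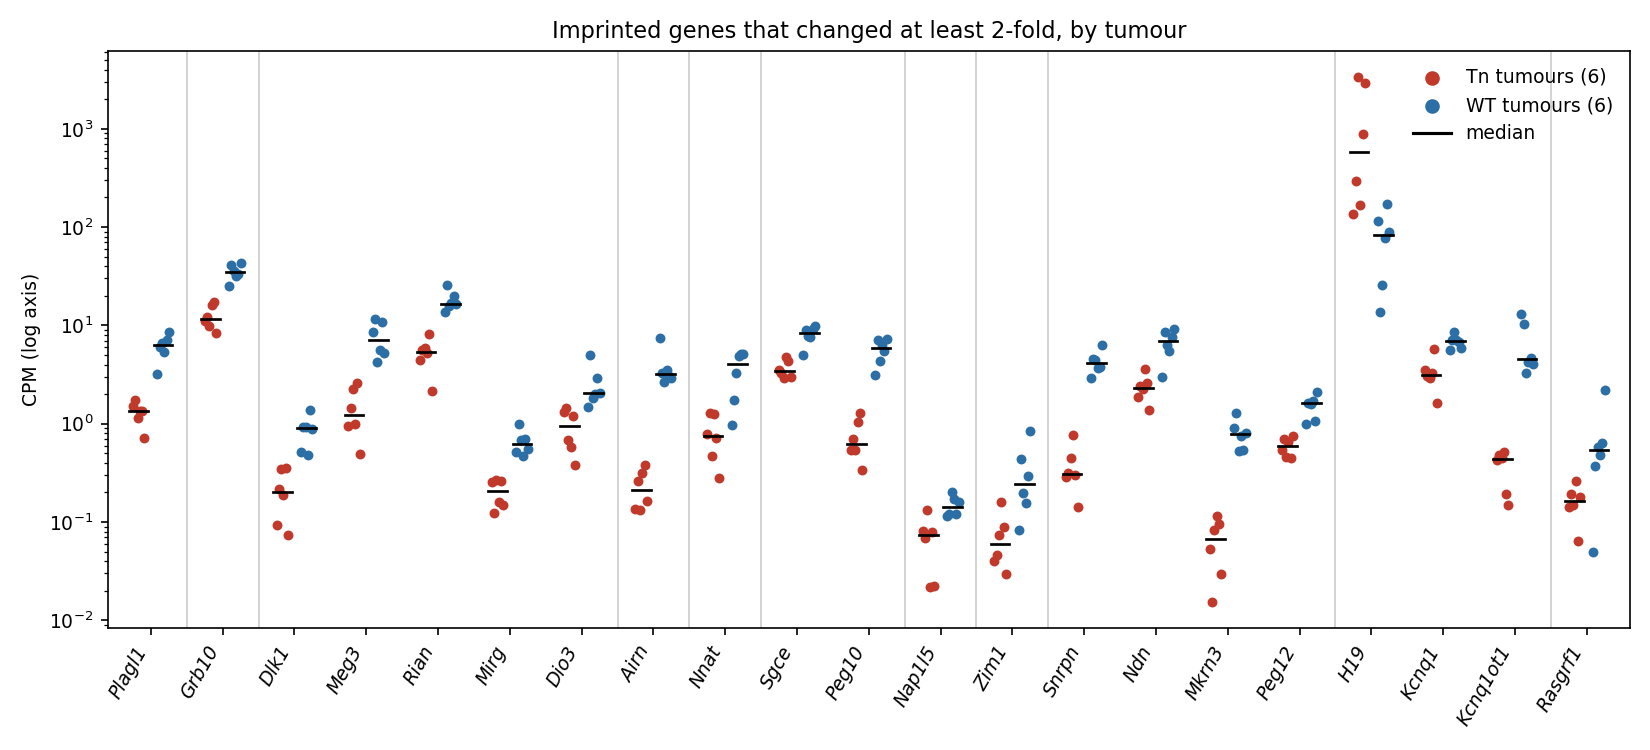
CPM on a log axis in each of the 6 Tn and 6 WT tumours for the 21 imprinted genes that changed at least 2-fold, with the group medians as bars and lines between clusters. Kcnq1ot1, Airn, Snrpn, Mkrn3 and Peg10 stand apart between the groups, while H19 spreads from 135 to 3362 CPM among Tn tumours.

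Start regions are shown for 4 of the paternally expressed genes that fell most and have a single entry in the promoter table, since the imprinting mark of a paternally expressed gene often lies at or near its start and is laid on CpG pairs. Each is the 250 bases before and 50 bases after a start site, from RefSeq on mouse build GRCm38.p6, printed 5′ to 3′ on the gene's strand, with every CpG in capitals.
Kcnq1ot1, chr7:143296498-143296797, minus strand: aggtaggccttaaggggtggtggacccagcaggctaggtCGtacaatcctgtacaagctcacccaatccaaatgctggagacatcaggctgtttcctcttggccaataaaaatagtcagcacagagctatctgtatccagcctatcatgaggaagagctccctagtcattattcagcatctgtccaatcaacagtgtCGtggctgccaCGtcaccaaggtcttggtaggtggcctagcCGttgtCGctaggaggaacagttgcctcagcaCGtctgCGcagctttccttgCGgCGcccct
Airn, chr17:12741061-12741360, plus strand: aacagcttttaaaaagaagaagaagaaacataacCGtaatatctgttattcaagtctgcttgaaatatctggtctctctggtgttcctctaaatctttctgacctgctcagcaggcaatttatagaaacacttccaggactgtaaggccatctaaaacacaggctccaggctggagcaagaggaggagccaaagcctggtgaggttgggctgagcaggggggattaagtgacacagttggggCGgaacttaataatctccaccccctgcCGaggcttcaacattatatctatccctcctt
Mkrn3, chr7:62420104-62420403, minus strand: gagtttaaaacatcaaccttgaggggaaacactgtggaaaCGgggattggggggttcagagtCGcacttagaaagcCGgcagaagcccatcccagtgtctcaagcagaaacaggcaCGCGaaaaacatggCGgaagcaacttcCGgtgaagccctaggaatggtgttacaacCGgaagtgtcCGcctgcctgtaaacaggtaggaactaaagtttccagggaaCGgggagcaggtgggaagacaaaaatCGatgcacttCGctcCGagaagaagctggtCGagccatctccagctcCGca
Plagl1, chr10:13090582-13090881, plus strand: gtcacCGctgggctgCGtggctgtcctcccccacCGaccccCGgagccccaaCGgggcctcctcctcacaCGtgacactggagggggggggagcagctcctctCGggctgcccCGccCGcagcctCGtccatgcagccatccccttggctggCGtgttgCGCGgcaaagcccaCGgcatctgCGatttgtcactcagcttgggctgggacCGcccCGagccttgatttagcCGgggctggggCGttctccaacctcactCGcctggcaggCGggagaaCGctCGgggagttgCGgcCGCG
The window of Kcnq1ot1 held 9 CpG, that of Airn 3, that of Mkrn3 15 and that of Plagl1 26. Of the 41 genes, 34 had an entry, with 51 start windows in all and a median of 13 CpG per window, against 7 over all 32851 windows of that length in the table. The hexamer TGCCGC, which the imprint guard ZFP57 recognises when its CpG is methylated, was searched on both strands and stood in 12 of the 51 windows (23.5%), against 11.6% of all windows. Of the 4 windows printed, that of Plagl1 held it, on the strand opposite to the printed one. The match starts at base 161 of the window as printed. A match is a description of these letters, and methylation was not measured.

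The cluster at the end of chromosome 7 held the largest fall and the largest rise. Kcnq1ot1 (GRCm39 chromosome 7, 142731562 to 142850286, minus strand) is a long non-coding RNA that starts inside Kcnq1 and is read from the paternal copy, where it silences the genes around it in the mouse. Its lowest, median and highest CPM were 0.149, 0.436 and 0.519 in Tn tumours, against 3.31, 4.502 and 13.2 in WT tumours. No Tn tumour reached the lowest WT tumour, and the Tn mean was 5.55% of the WT mean. The log2 fold change of -4.17 ± 0.46 was the 21st largest fall of the 19255 tested genes.

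The genes that Kcnq1ot1 silences on the paternal copy in the mouse are read from the maternal copy, and none of those on the list rose. Outside the list, Tspan32 of the same cluster rose by 3.44 ± 0.88 (edgeR, adjusted p = 0.00956), and by 1.69 without Tn4. Tnfrsf22 of this cluster, also outside the list, fell by 1.32 ± 0.19, and the other imprinted genes tested there did not pass. Whether Kcnq1ot1 silences any gene of the cluster in these tumours was not tested. Kcnq1, a potassium channel subunit, had 1.64, 3.15 and 5.75 CPM (lowest, median, highest) in Tn tumours and 5.62, 6.93 and 8.48 CPM in WT tumours, a log2 fold change of -1.03 ± 0.24. The highest Tn tumour reached the WT range. Cdkn1c, the cyclin-dependent kinase inhibitor p57, averaged 0.601 ± 0.150 CPM in Tn and 1.16 ± 0.145 CPM in WT tumours (SD, n = 6 each), with a log2 fold change of -0.94 ± 0.19 and no overlap between the groups. Osbpl5, a sterol-binding protein of the oxysterol-binding family, had a log2 fold change of -0.30 ± 0.10 and means of 50.8 ± 8.85 CPM in Tn and 62.6 ± 4.42 CPM in WT tumours. Osbpl5 lost its call when any of the tumours Tn1 to Tn4 or WT2 to WT4 was left out, with log2 fold changes of -0.30 to -0.25.

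Phlda2, which restrains placental growth, ran from 6.64 to 19.2 CPM in Tn and from 10.9 to 23.9 CPM in WT tumours. Slc22a18, an organic cation transporter-like protein, ran from 5.29 to 11.4 CPM in Tn and from 3.76 to 8.30 CPM in WT tumours. Ascl2, a transcription factor of trophoblast and intestinal stem cells, stayed at or below 0.549 CPM in Tn and 0.579 CPM in WT tumours. None of these 3 passed the threshold, and the groups overlapped in each. Kcnq1 and Kcnq1ot1 share 2.96% and 1.20% of their exon bases with genes on the other strand, Cdkn1c shares 30.7% with an antisense gene, and the counting did not use the strand. Kcnq1ot1, counted over 93651 exon bases, lies inside the span of Kcnq1 on the other strand. Reads of unspliced Kcnq1 and those of Kcnq1ot1 therefore cannot be told apart.

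H19 (chromosome 7, 142129262 to 142131917, minus strand), the maternally expressed non-coding RNA that carries the microRNA miR-675, went the other way. Its CPM in the 6 Tn tumours in label order were 135, 295, 3362, 168, 878 and 2950, against 115, 13.7, 25.6, 77.05, 172 and 90.1 in the 6 WT tumours. The groups overlapped: 4 Tn tumours lay above every WT tumour, while Tn1 and Tn4 lay within the upper end of the WT range. The log2 fold change was 3.98 ± 0.94, with the largest standard error of the tested members, and it was 3.43 without Tn3 and 3.56 without Tn6. Summed over tumours it had 998923 counts in Tn and 61016 counts in WT. Igf2, the paternally expressed growth factor that shares its control region with H19, was hardly read, at 9 counts over all Tn tumours and 27 over all WT tumours, and was not tested.

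H19 is known to be high in developing and adult skeletal muscle, and markers of muscle varied between the tumours. The mean log2 CPM of 10 skeletal muscle genes was -0.30, -2.22, 1.84, -1.63, 3.35 and 2.29 in tumours Tn1 to Tn6, and 1.21, -2.04, -1.54, 1.16, 1.02 and 1.90 in tumours WT1 to WT6. The 3 Tn tumours with the highest H19 also had the highest muscle level of their group, and the 2 WT tumours with the lowest H19 had the lowest. Within Tn tumours Pearson's r of log2 H19 with the muscle level was 0.75 (exact permutation p = 0.121, adjusted 0.668 over 24 relations) and Spearman's rho 0.54, and r was 0.93 without the 2 tumours farthest from the median. Within WT tumours r was 0.91 (exact permutation p = 0.0333, adjusted 0.668) and rho 0.60, and r was -0.48 without the 2 farthest tumours, so it rested on those. The relation was picked after the values were seen. With the muscle level as a covariate the log2 fold change of H19 was 3.51, and 2 members rose and 25 fell, where 19.7% of all tested genes rose and 18% fell. With the fibroblast level described below as a covariate it was 3.24 and did not pass. None of the 10 muscle genes was at 0 in all tumours and none passed the threshold between the groups. Tnnt3, which is on this muscle list, lies within 500 kb of H19 and was also counted among the neighbours of its cluster.

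**Figure D3:**
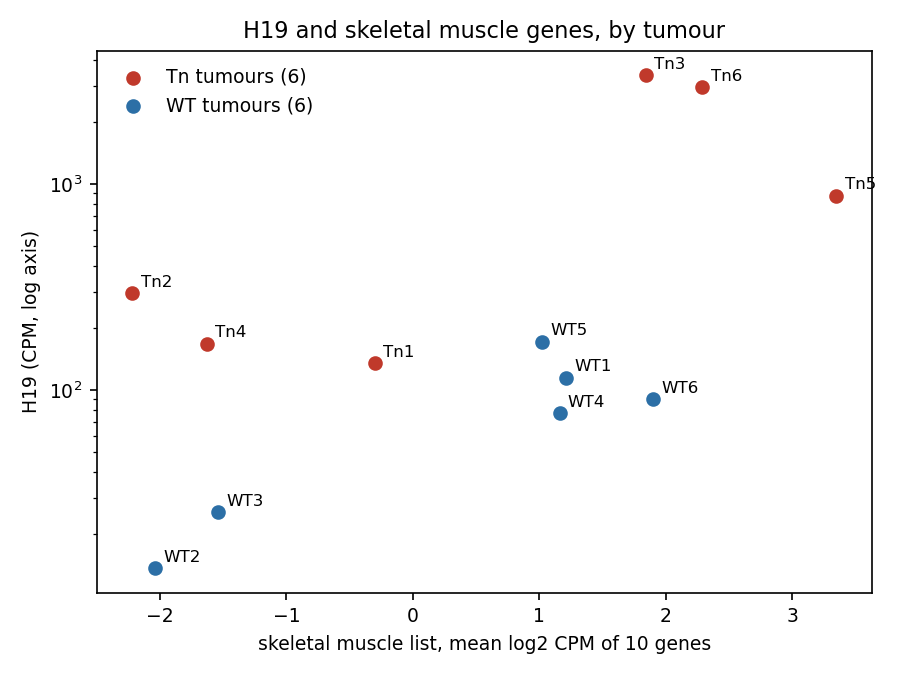
H19 (CPM, log axis) against the mean log2 CPM of 10 skeletal muscle genes, 1 point per tumour. Tn3, Tn5 and Tn6 lie at the upper right, WT2 and WT3 at the lower left, and Tn2 and Tn4 lie above WT2 and WT3 at a like muscle level.

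Airn (chromosome 17, 12960198 to 13079023, plus strand) is the second paternally expressed antisense RNA of the list. It starts inside Igf2r, the receptor that clears insulin-like growth factor 2, and silences the paternal Igf2r in the mouse. Airn had 0.131, 0.212 and 0.384 CPM (lowest, median, highest) in Tn tumours and 2.69, 3.18 and 7.49 CPM in WT tumours. The groups were far apart, the Tn mean being 6.05% of the WT mean, and the log2 fold change of -4.04 ± 0.37 was the 25th largest fall. Igf2r was 525, 681 and 984 CPM in Tn tumours and 311, 476 and 738 CPM in WT tumours, a log2 fold change of 0.49 ± 0.20 (edgeR, adjusted p = 0.0667), which did not pass the threshold. It passed without WT1 (0.65, adjusted p = 0.0144), without Tn2 (adjusted p = 0.0448), with DESeq2 (adjusted p = 0.0434) and with voom (adjusted p = 0.0321). Slc22a3, an organic cation transporter that Airn silences in the mouse placenta, had a log2 fold change of -1.82 ± 0.92 (adjusted p = 0.137) and did not pass. Igf2r and Slc22a3 were named after their values were seen.

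The other tested genes of the Airn region are not on the list. Of the 18 other tested genes within 500 kb of Airn, 7 fell (38.9%) and none rose, where 17.4% of all tested genes fell and 19.5% rose. The 3 largest falls were unnamed gene models inside the span of Airn, and since strand was ignored in counting, their reads and those of an unspliced Airn transcript cannot be told apart. Gm7162 had 18 counts over the Tn tumours against 444 over the WT tumours (log2 fold change -4.65 ± 0.48; edgeR, adjusted p = 4.95e-05). Gm16574 had 9 counts against 376, and Gm49958 had 2 counts against 172. Pnldc1, an exonuclease that trims piRNAs, was further away and fell by 1.47 on the log2 scale, and Acat3 and Acat2, acetyl-CoA acetyltransferases, fell by 1.32 and 0.42. Map3k4, Mrpl18, Tcp1, Wtap and Sod2, all above 30 CPM, had log2 fold changes between -0.10 and 0.10. Gm49959, Pnldc1, Acat3, Acat2 and these 5 were named after their values were seen.

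**Figure D4:**
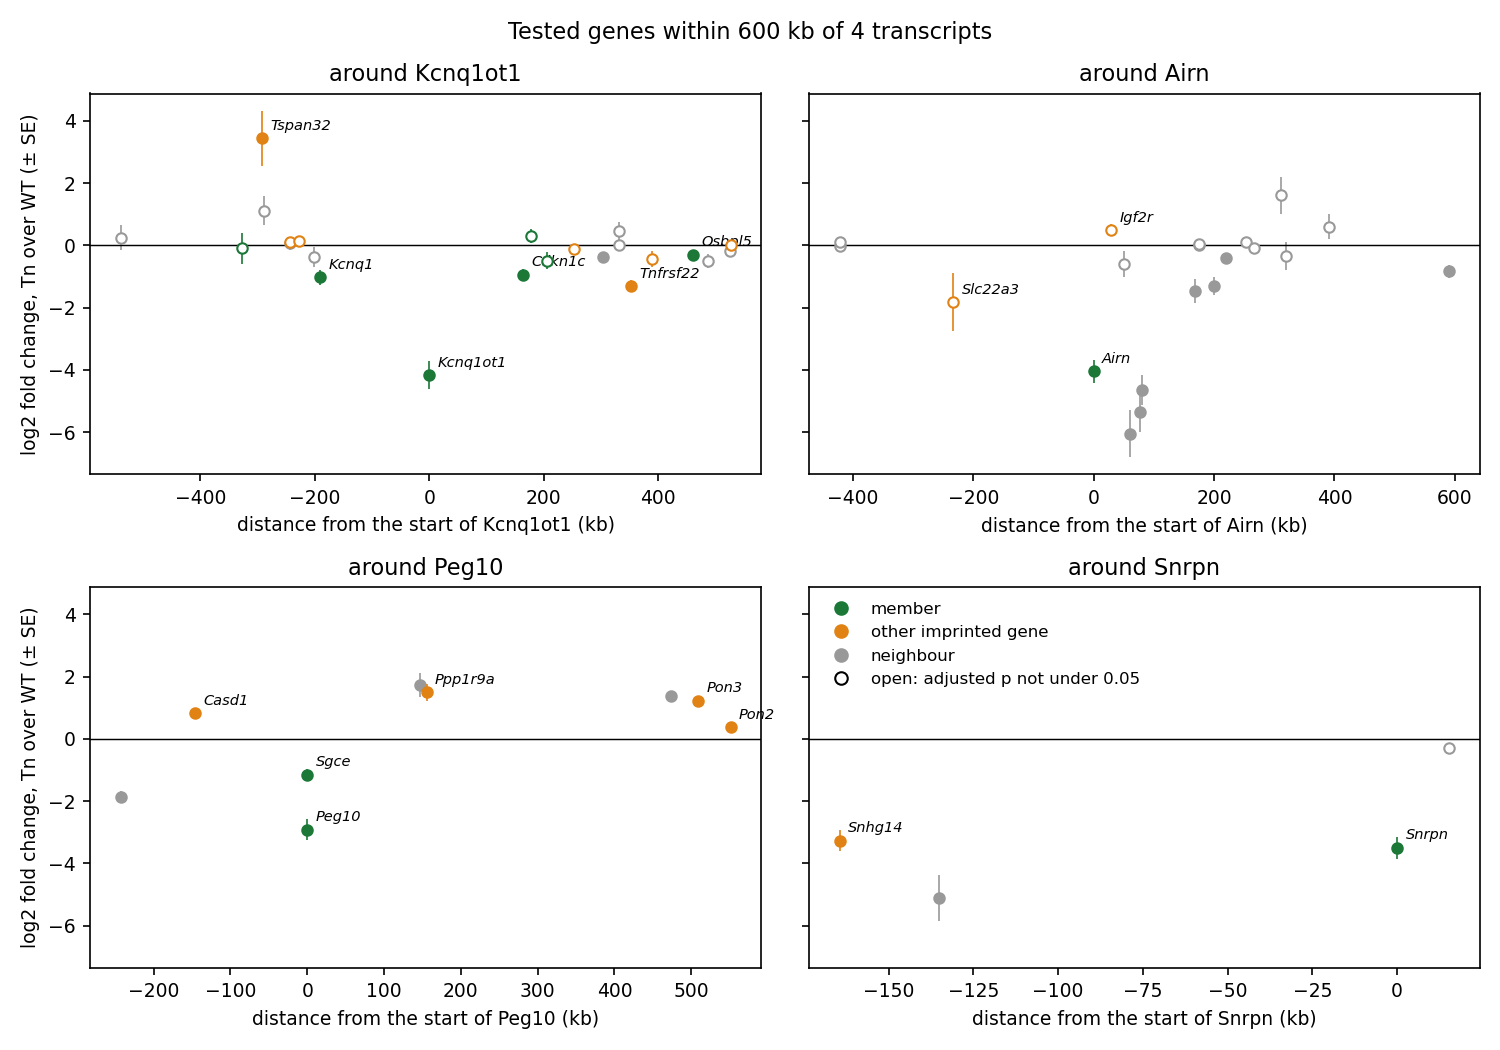
Log2 fold change, Tn over WT (bars of 1 SE), of tested genes against distance in kb from the start of Kcnq1ot1, Airn, Peg10 and Snrpn; green marks listed genes, orange other imprinted genes and grey neighbours, and open points did not pass an adjusted p of 0.05. Near Airn 3 grey gene models lie below it at -4.65 to -6.05, and around Peg10 the other imprinted genes lie above 0 while Sgce and Peg10 lie below.

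On the Prader-Willi and Angelman region of chromosome 7 (58878498 to 62114258), all 5 tested genes fell. Snrpn, which codes for a splicing protein of neurons and heart, had 0.141, 0.309 and 0.771 CPM in Tn tumours and 2.90, 4.10 and 6.29 CPM in WT tumours, a log2 fold change of -3.50 ± 0.36. Mkrn3, a ring-finger protein that restrains puberty in humans, had 0.0154, 0.0679 and 0.115 CPM in Tn tumours and 0.525, 0.777 and 1.29 CPM in WT tumours, a log2 fold change of -3.60 ± 0.43. In both genes the groups did not overlap, and the Tn means were 8.84% and 8.15% of the WT means.

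Ndn, the growth suppressor necdin, had 1.37, 2.33 and 3.56 CPM in Tn and 2.96, 6.95 and 9.25 CPM in WT tumours, a log2 fold change of -1.51 ± 0.28, and WT1 alone of the WT tumours reached into the Tn range. Peg12, of the FRAT family of GSK3 binding proteins, had 0.448, 0.600 and 0.742 CPM in Tn and 1.00, 1.61 and 2.09 CPM in WT tumours, with no overlap and a log2 fold change of -1.35 ± 0.22. Ube3a, the maternally expressed ubiquitin ligase of the region, is read from both copies outside neurons. It averaged 67.7 ± 6.07 CPM in Tn and 81.2 ± 8.3 CPM in WT tumours, a log2 fold change of -0.26 ± 0.08, and lost its call without Tn1 (-0.23) or without Tn2 (-0.22). Magel2, of the same MAGE family as Ndn, had 0 counts in Tn tumours and 6 in WT tumours and was not tested.

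Snhg14, the long paternal transcript that runs from Snrpn through snoRNA genes and across Ube3a, is not among the 41. It had 0.0594, 0.0763 and 0.209 CPM in Tn tumours and 0.679, 0.827 and 1.34 CPM in WT tumours, and fell by 3.27 ± 0.34 on the log2 scale (edgeR, adjusted p = 5.35e-05). Gm38393, which shares exons with Snrpn on its strand, had 6 counts in Tn and 219 in WT tumours. These genes overlap one another: 34.1% of the exon bases of Snrpn and 27.3% of those of Ube3a are also exons of other genes. The counting did not ask for reads over several genes, so reads on shared bases were not credited to both. How far this changed the count of each gene was not tested.

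In the Dlk1-Dio3 cluster of chromosome 12 (109418749 to 110247531) all 5 tested genes fell, and in none did the groups overlap. Its maternally expressed members are non-coding RNAs. Meg3, the first of them, had 0.497, 1.22 and 2.59 CPM in Tn tumours and 4.20, 7.05 and 11.7 CPM in WT tumours, a log2 fold change of -2.39 ± 0.41. Rian, which carries snoRNAs, had 2.14, 5.41 and 8.14 CPM in Tn and 13.6, 16.6 and 26.0 CPM in WT tumours, a log2 fold change of -1.79 ± 0.27. Mirg, which carries microRNAs, had 0.123, 0.207 and 0.271 CPM in Tn and 0.465, 0.622 and 0.989 CPM in WT tumours, a log2 fold change of -1.68 ± 0.27.

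The paternally expressed members code for proteins. Dlk1, a membrane protein of the Notch ligand family that holds back fat cell differentiation, had 0.0742, 0.201 and 0.352 CPM in Tn tumours and 0.486, 0.913 and 1.37 CPM in WT tumours, a log2 fold change of -2.02 ± 0.41. Dio3, which inactivates thyroid hormone, had 0.379, 0.944 and 1.46 CPM in Tn and 1.48, 2.05 and 5.00 CPM in WT tumours, a log2 fold change of -1.45 ± 0.38, and its highest Tn and lowest WT tumour were nearly level. Rtl1, a retrotransposon-derived gene of the placenta, had 24 counts in Tn and 84 counts in WT tumours and was too low to test.

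Whether neighbours in a cluster varied together among tumours of 1 group was tested for 20 pairs in each group, 40 tests with 720 permutations each. In Tn tumours Dlk1 and Meg3, which are read from opposite parental copies, had a Pearson r of 0.95 (exact two-sided permutation p = 0.00139, the smallest possible; adjusted 0.0278) and r = 0.98 without the 2 tumours farthest from the median. Spearman's rho of this pair was 1.00 (exact permutation p = 0.00278, adjusted 0.0556). Meg3 and Rian had r = 0.92 in Tn tumours (exact permutation p = 0.00139, adjusted 0.0278), rho = 1.00 (adjusted 0.0556) and r = 0.83 without 2 tumours. In WT tumours r was 0.27 for the first pair and 0.61 for the second (adjusted exact permutation p = 0.84 and 0.603). No other pair passed, and the difference between the groups was not tested. Tumour depth and composition are shared by the genes of a pair.

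On chromosome 6 the paternally expressed pair Sgce and Peg10, whose start sites lie side by side on opposite strands, both fell. Peg10, a retrotransposon-derived gene needed for the placenta, had 0.342, 0.624 and 1.28 CPM in Tn tumours and 3.09, 5.89 and 7.26 CPM in WT tumours, a log2 fold change of -2.92 ± 0.34. Sgce, the epsilon-sarcoglycan of the cell membrane, had 2.93, 3.42 and 4.77 CPM in Tn and 4.97, 8.43 and 9.94 CPM in WT tumours, a log2 fold change of -1.15 ± 0.18. The groups did not overlap in either gene. Asb4, the maternally expressed ankyrin-repeat gene of the cluster, ran from 2.27 to 11.3 CPM in Tn and from 4.05 to 6.46 CPM in WT tumours and did not pass.

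Other imprinted genes around Peg10 were tested outside the list, and 4 of them rose. Ppp1r9a, the actin-binding neurabin, had 24.6, 29.3 and 54.8 CPM in Tn tumours and 8.23, 10.7 and 18.6 CPM in WT tumours, a rise of 1.49 ± 0.27 on the log2 scale (edgeR, adjusted p = 0.00129). Pon3, a lactonase of the paraoxonase family, rose by 1.23 ± 0.13 (adjusted p = 5.91e-05), Casd1, a sialic acid O-acetyltransferase, by 0.82 ± 0.10 (adjusted p = 0.000144) and Pon2, another paraoxonase, by 0.38 ± 0.08 (adjusted p = 0.00348). Pon3, Casd1 and Pon2 were named after their values were seen. Of the 5 tested neighbours of the cluster on neither list, Gmfg-ps rose by 1.72 ± 0.39 and Gm44250 by 1.36 ± 0.15, while Col1a2, a collagen gene on the same side of Peg10 as Casd1, fell by 1.87 ± 0.20. These 3 were named after their values were seen. Col1a2 is also on the list of 13 fibroblast genes described below, of which 12 fell.

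Further along chromosome 6, Mest and Copg2 overlap tail to tail and moved apart. Mest, a paternally expressed hydrolase-fold protein of mesoderm, averaged 24 ± 7.04 CPM in Tn and 39.9 ± 10.2 CPM in WT tumours, a log2 fold change of -0.73 ± 0.21. Copg2, a maternally expressed subunit of the COPI coat of Golgi vesicles, averaged 60.4 ± 6.73 CPM in Tn and 48.9 ± 4.66 CPM in WT tumours, a log2 fold change of 0.30 ± 0.09. They share 23.1% and 17.8% of their exon bases with each other, on opposite strands. Nap1l5, a paternally expressed gene of the nucleosome assembly protein family, had 0.0216, 0.0745 and 0.131 CPM in Tn and 0.115, 0.141 and 0.204 CPM in WT tumours. Its log2 fold change was -1.14 ± 0.40, and the call was lost without any one of the tumours Tn1, Tn2, Tn4 to Tn6 or WT2 to WT6, with values of -1.20 to -0.94.

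In the Peg3 cluster at the start of chromosome 7, Zim1, a maternally expressed zinc finger gene, had 0.0297, 0.0599 and 0.159 CPM in Tn and 0.0823, 0.246 and 0.845 CPM in WT tumours, a log2 fold change of -2.20 ± 0.57. Peg3, a paternally expressed zinc finger transcription factor, ran from 1.76 to 9.65 CPM in Tn and from 6.98 to 8.70 CPM in WT tumours. In Peg3, 5 Tn tumours lay below every WT tumour and Tn5 above every WT tumour. Its log2 fold change of -0.86 ± 0.32 did not pass, and it was -1.27 and passed without Tn5. It also passed with DESeq2 (-0.87), voom (-1.09), upper-quartile scaling (-0.91) and a filter at a mean of 1 CPM (-0.90). Usp29, a paternally expressed ubiquitin protease, had 98 counts in Tn and 38 in WT tumours and was not tested.

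Of the remaining genes, Plagl1 is a zinc finger factor that arrests the cell cycle and acts on other imprinted genes. Plagl1 had 0.713, 1.35 and 1.73 CPM in Tn tumours and 3.21, 6.31 and 8.67 CPM in WT tumours. Its log2 fold change was -2.23 ± 0.26. Grb10, an adaptor that dampens insulin and IGF receptor signalling, had 8.43, 11.6 and 17.4 CPM in Tn tumours and 24.9, 34.5 and 43.5 CPM in WT tumours, a log2 fold change of -1.49 ± 0.19. The groups did not overlap in either gene. Nnat, the membrane protein neuronatin that lies inside Blcap, had 0.282, 0.749 and 1.297 CPM in Tn tumours and 0.971, 4.08 and 5.15 CPM in WT tumours, a log2 fold change of -2.13 ± 0.47. WT1 lay within the Tn range and the other WT tumours above it. Rasgrf1, an exchange factor that activates Ras, had 0.0640, 0.163 and 0.259 CPM in Tn and 0.0494, 0.535 and 2.19 CPM in WT tumours. Its log2 fold change of -2.13 ± 0.65 became -1.37 without WT6, the highest tumour, and then did not pass.

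The rest of the listed genes did not pass the threshold or were not tested, and their groups overlapped. Among them Blcap shares a cluster with Nnat, and Ddc with Grb10. Slc38a4, an amino acid transporter, ran from 0.134 to 1.14 CPM in Tn and from 0.346 to 1.99 CPM in WT tumours, with a log2 fold change of -1.22 ± 0.58 that became -1.66 and passed without Tn4. Impact, which restrains the amino acid sensor GCN2, ran from 31.4 to 77.1 CPM in Tn and from 27.8 to 42.8 CPM in WT tumours. In Impact 3 Tn tumours lay above every WT tumour. Gnas, the stimulatory G protein alpha subunit, ran from 854 to 1033 CPM in Tn and from 806 to 1010 CPM in WT tumours. Blcap, a small conserved membrane protein, ran from 48.0 to 64.4 CPM in Tn and from 50.7 to 63.1 CPM in WT tumours, and Inpp5f, a phosphoinositide phosphatase, from 22.4 to 29.5 CPM in Tn and from 23.5 to 35.4 CPM in WT tumours. Ddc, the decarboxylase of dopamine and serotonin synthesis, had 168 counts in Tn and 48 in WT tumours, and Zdbf2, a zinc finger gene, 50 in Tn and 42 in WT tumours.

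Within each group some tumours were low or high across many of these genes. Among the 24 genes that fell, Tn6 was the lowest Tn tumour in 13, while Tn4 and Tn5 were the highest in 8 each. WT1 was the lowest WT tumour in 16 of the 24, among them Grb10, Ndn, Peg10, Plagl1, Sgce and Snrpn, and WT6 was the highest in 11. Kcnq1ot1 and Airn had the opposite order in WT1, which was the highest WT tumour in these 2 genes and in none of the other 22. In WT1 the fibroblast gene level given below was the lowest of the WT tumours. These orders were looked for after the values were seen and were not tested.

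Of 45 other imprinted genes, 40 were found under a single symbol and 30 were tested, with a median log2 fold change of 0.00. Of these 30, 9 rose (30.0%) and 4 fell (13.3%), against 19.5% and 17.4% of all tested genes. Without Tn4, 7 fell. Gatm, which makes the creatine precursor guanidinoacetate, had 126, 217 and 347 CPM in Tn tumours and 53.2, 72.0 and 118 CPM in WT tumours, a rise of 1.51 ± 0.29 (edgeR, adjusted p = 0.00214), with no overlap. Htr2a, a serotonin receptor, had 1.63, 2.44 and 7.41 CPM in Tn tumours and 9.43, 10.9 and 14.7 CPM in WT tumours, a fall of 1.80 ± 0.33 (adjusted p = 0.00146). Rhox5, a homeobox gene of the X chromosome, rose by 2.91 ± 0.76 (adjusted p = 0.0107), with 0.119 to 4.19 CPM in Tn and 0.0957 to 0.619 CPM in WT tumours. Tspan32, a tetraspanin of blood cells in the Kcnq1ot1 cluster, rose by 3.44 ± 0.88 (adjusted p = 0.00956) with 10.7 CPM in Tn4, and by 1.69 without Tn4. Tnfrsf22, a decoy death receptor of the same cluster named after its values were seen, fell by 1.32 ± 0.19 (adjusted p = 0.000372).

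Over all clusters, 176 further genes within 500 kb were tested, of which 28 rose (15.9%) and 36 fell (20.5%), against 19.5% and 17.4% of all tested genes, with a median log2 fold change of -0.02. The neighbour with the largest rise was Zfp831, a zinc finger gene near Gnas, at 3.68 ± 1.13. It held 9.97 CPM in Tn4 and at most 0.261 CPM in any WT tumour, and its log2 fold change was 0.95 and did not pass without Tn4. None of the 6 neighbours of the Ube3a-Peg12 cluster rose and 1 fell, and of the 13 neighbours of the Dlk1-Dio3 cluster 1 rose and 3 fell.

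Of 30 proteins that set, read or guard imprints, 27 were tested. Of these 27, 7 fell (25.9%) and 2 rose (7.41%), against 17.4% and 19.5% of all tested genes. Zfp57, the zinc finger protein that keeps methylation at imprinted control regions of the early embryo, had 0.459, 0.611 and 0.946 CPM in Tn tumours and 3.55, 4.58 and 6.02 CPM in WT tumours. The groups did not overlap, and the log2 fold change was -2.78 ± 0.23 (edgeR, adjusted p = 1.41e-05). Tet1, which oxidises methylated cytosine, had 0.507, 1.49 and 4.25 CPM in Tn tumours and 4.09, 4.55 and 7.12 CPM in WT tumours, a log2 fold change of -1.42 ± 0.42 (adjusted p = 0.0192). Without tumours Tn4, Tn6 and WT6 together it was -1.41 and did not pass (adjusted p = 0.0622).

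The maintenance methyltransferase Dnmt1 fell by 0.61 ± 0.08 (edgeR, adjusted p = 0.000226), and the chromatin remodeller Hells by 0.89 ± 0.14 (adjusted p = 0.000663), each with no overlap between the groups. Suz12, a Polycomb subunit, fell by 0.28 ± 0.07 (adjusted p = 0.00789). Uhrf1, which brings Dnmt1 to replicated DNA, fell by 0.34 ± 0.12 (adjusted p = 0.0468), and the call was lost without any one of the tumours Tn1, Tn4 to Tn6 or WT2 to WT6, with log2 fold changes of -0.37 to -0.28. The histone-binding Rbbp4 rose by 0.34 ± 0.05 (adjusted p = 0.000506) and the histone methyltransferase Ehmt2 by 0.17 ± 0.05 (adjusted p = 0.0236). Ehmt2 lost its call with upper-quartile scaling (0.12), a filter at a mean of 1 CPM (0.13) and no filter (0.19). The call was also lost with a replicate block (0.18) and without Tn4, Tn6 and WT6 together (0.20). Trim28, the corepressor that ZFP57 binds, had a log2 fold change of -0.09 ± 0.11 (adjusted p = 0.53), Zfp445, a second guard of imprints, of 0.11 ± 0.12 (adjusted p = 0.502) and Dnmt3a, a de novo methyltransferase, of -0.01 ± 0.08 (adjusted p = 0.92), and none of these passed. These genes were named after their values were seen, other than Zfp57 and Tet1.

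Markers of several host cell types moved with the group, where 17.4% of all tested genes fell and 19.5% rose. Of 13 fibroblast genes 12 fell and 1 rose, and the sum of the 13 ran from 3400 to 4870 CPM in Tn and from 8210 to 20900 CPM in WT tumours. Their mean log2 CPM was 6.22 to 6.65 in Tn and 7.09 to 8.26 in WT tumours, with no overlap, and none of the 13 was at 0 in all tumours. Of 10 pericyte and smooth muscle genes 8 fell, with sums of 125 to 346 CPM in Tn and 353 to 711 CPM in WT tumours, and of 10 endothelial genes 7 fell, with sums of 285 to 534 CPM in Tn and 401 to 652 CPM in WT tumours. Of 8 T cell genes all rose, of 8 macrophage genes 6 rose, and of 8 tested genes of neurons and Schwann cells 3 fell. The part of these cells in the values of the imprinted genes was not tested beyond the fit described next.

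A fit with the fibroblast level as a covariate, chosen after the values were seen, left 2 of the 36 genes past the threshold, both falling, where 0.364% of all tested genes fell and 0.109% rose. These were Airn, with a log2 fold change of -4.97, and Kcnq1ot1, with -4.58. The other 22 falls and both rises lost their call. H19 came to 3.24 with the covariate, against 3.98 without it. Mkrn3 came to -3.02, against -3.60 without it, Snrpn to -2.02 against -3.50, Meg3 to -1.58 against -2.39 and Peg10 to -1.36 against -2.92. Sgce and Dlk1 came to -0.04 and -0.08. The sign turned in 10 genes: of those that had fallen, Ndn, Mest, Dio3, Zim1 and Rasgrf1 came to 0.61, 0.08, 0.09, 1.83 and 2.08, and of those that had not passed, Slc38a4, Ascl2, Phlda2, Impact and Slc22a18 came to 2.38, 2.62, 0.22, -0.15 and -0.21. The fibroblast level did not overlap between the groups, so the level and the group cannot be told apart in this fit.

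**Figure D5:**
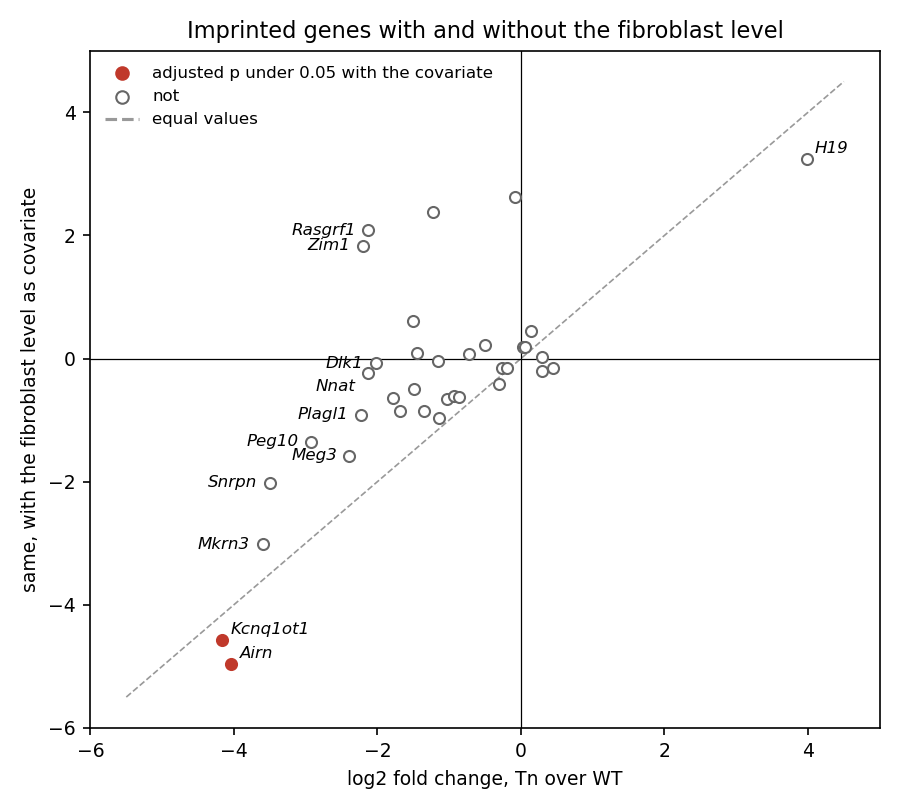
Log2 fold change, Tn over WT, of the 36 tested imprinted genes without (horizontal) and with (vertical) the mean log2 CPM of 13 fibroblast genes as a covariate; filled points passed an adjusted p of 0.05 with it, and the dashed line marks equal values. Airn and Kcnq1ot1 lie on or below the line at -4.97 and -4.58, while most other genes that fell lie above it.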

How the data were processed

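Per the labels, poly(A) RNA of 12 tumours of 1 batch was sequenced as read pairs with a stranded kit. The submitters' processing notes name fastp 0.23 for trimming, STAR 2.7.11a for alignment to GRCm39, and featureCounts from Subread 2.1.1. The deposited values are raw counts over the exons of each Ensembl 112 gene, per the file headers, which show that strand was ignored and that neither single counting of a pair nor reads over several genes were asked for. Between 66.4% and 72.5% of low counts were even, which is what pairs counted at both ends give. Reads of overlapping genes, antisense genes and close copies are uncertain.

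Symbols came from a GRCm39 annotation of Ensembl release 116, which held 56630 of the 57186 identifiers. The edgeR 4.0.16 quasi-likelihood test in R 4.3.3 used all 12 tumours, TMM scaling and filterByExpr, with Benjamini-Hochberg adjustment over 19255 genes and a threshold of 0.05. Each SE was computed as log2 fold change over the square root of F. The common biological coefficient of variation was 0.358. CPM are scaled by TMM, and list levels are mean log2 CPM with a prior count of 2. The design text calls the 6 tumours of a group biological replicates, and p-values measure the spread between them. They do not separate silencing of Cosmc from other differences between the silenced and the parental cells. The script was tested on simulated data.

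The members, lists and rules were chosen with earlier results of these data known. All members are given. Named as well are other imprinted genes and regulators that changed at least 2-fold past the threshold (at most 6 of each) and the 5 neighbours that changed most; others are said to be named after their values were seen. One regulator that passed the threshold is not reported here by name. Within-group correlations used log2 CPM and exact two-sided permutation tests (scipy 1.17.1). Tried as alternatives were DESeq2 1.42.0, limma 3.58.1 voom, RLE or upper-quartile scaling, other filters, a threshold of 0.01, a replicate block, leaving out each tumour or 3 tumours together, a wider neighbour window, and 2 covariates added after seeing the data. Promoters were searched as letters in a RefSeq table on GRCm38.p6, and no coordinates were converted between builds.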

Additional observations from a re-analysis of the deposited data

Results flagged for a closer look

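In each gene and group the highest and lowest of the 6 tumours were set against the others on the scale of log2 CPM. A tumour counted as apart when its gap to the nearest one, as a share of the group's range, was above a limit. This was Dixon's 95% limit for 6 values. The values below are given as CPM. Of 124 gene and group combinations 12 had such a tumour, and chance gives about 1 in 20 combinations. Among the listed imprinted genes, Mest was highest in Tn5 at 38.1 CPM, Ascl2 was lowest in Tn3 at 0.0656 CPM, Airn was highest in WT1 at 7.49 CPM, Cdkn1c was highest in WT6 at 1.44 CPM and Slc22a18 was lowest in WT2 at 3.76 CPM. Among other imprinted genes and neighbours, Snhg14 was highest in Tn4 at 0.209 CPM, Zfp831 in Tn4 at 9.97 CPM, Gm49958 in Tn6 at 0.0148 CPM, Pon2 in WT2 at 91.7 CPM and Gm7162 in WT1 at 1.04 CPM. Ehmt2 was lowest in WT2 at 172 CPM, and C1galt1c1 was highest of the Tn tumours in Tn1 at 12.9 CPM. The cause of these values was not tested.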

How the results depend on the processing

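Of the 24 falls, 19 passed in each of the 20 planned refits in which the gene was tested, as did both rises. The exceptions were Nap1l5 (6 of 19), Osbpl5 (11 of 20), Ube3a (16 of 20), Rasgrf1 (16 of 19) and Mest (19 of 20; -0.60 without Tn4, Tn6 and WT6). At an adjusted p under 0.01, members that rose numbered 1, regulators that rose 1 and that fell 4, neighbours that rose 17 and that fell 22. Within 1 Mb, 58 neighbours rose and 58 fell. That window held more tested genes than the one of 500 kb, so the counts of the windows cannot be compared directly. Regulators that rose numbered 1 with a mean CPM of at least 1, with no filter, with upper-quartile scaling, without the 3 tumours and with the replicate block. Other imprinted genes that fell numbered 8 with voom. With the fibroblast covariate 0 members rose and 2 fell, and Mest (0.08), Ndn (0.61), Rasgrf1 (2.08), Dio3 (0.09) and Zim1 (1.83) changed sign. The cause was not tested. With 1 tumour left out, 2 to 3 members rose and 22 to 25 fell, 8 to 10 other imprinted genes rose and 4 to 7 fell, 2 to 3 regulators rose and 5 to 8 fell, and 23 to 32 neighbours rose and 29 to 33 fell. The replicate numbers did not pair the tumours, with correlations of same-numbered tumours between -0.125 and 0.158 and 1 of 6 best with its own number. With the replicate block 2 members rose and 21 fell, Peg3 (-1.07) and Igf2r passed, and Tspan32 (2.15) and Zfp831 (1.61) did not. Upper-quartile scaling moved the median of all genes by -0.054 on the log2 scale. Genes under 0.1 CPM rest on few counts.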
